A study of Mus musculus with 4 samples.

Results

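The mitochondrial ribosome is the ribosome that sits inside mitochondria and makes the few proteins encoded by mitochondrial DNA, all of them parts of the machinery of oxidative phosphorylation. Its protein parts are encoded in the nucleus, made in the cytosol and imported, and they join a large subunit, named Mrpl, or a small subunit, named Mrps, around ribosomal RNAs that come from mitochondrial DNA. In male germ cells the mitochondria change shape and number as the cells pass through meiosis, and pachytene, the long stage at which homologous chromosomes are fully paired, is the stage studied here. The genes described are the rows of the gene count table whose symbol is Mrpl or Mrps followed by a number and at most 1 letter. That rule found 78 of 50763 genes, 49 of the large subunit and 29 of the small subunit, and all 78 passed the filter on low counts.

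Polyadenylated RNA from mouse testis, labelled as purified pachytene spermatocytes, was sequenced in 4 libraries. WT replicates 1 and 2 came from wild-type mice, and knockdown replicates 1 and 2 came from mice labelled as an Hsf5 knockdown. The Hsf5 protein belongs to the heat shock factors, which bind DNA, and is known from testis. The labels call the replicates biological and give the cells as meiotic, but they give no age, strain or means of the knockdown and do not say whether replicates came from separate animals, so the p-values reflect only how far these 4 libraries spread.

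The libraries held 33287428 to 42479164 counts. Hsf5 itself stood at 586 and 449 CPM (gene counts over the library's total, on the usual per-million scale, with TMM scaling between libraries) in WT replicates 1 and 2 and at 287 and 238 CPM in knockdown replicates 1 and 2, a log2 fold change of -0.98 (SE 0.31; edgeR quasi-likelihood test, adjusted p = 0.0217). Scaled by library totals alone, the call was lost (-0.55, edgeR adjusted p = 0.115), as it was without WT replicate 1 (edgeR adjusted p = 0.219) or WT replicate 2 (0.0725). The groups also differed in markers of other cells. Summed over lists, 10 Sertoli cell markers stood at 181 and 444 CPM in WT and 4096 and 4659 CPM in the knockdown, 7 Leydig cell markers at 116 and 793 CPM and at 1408 and 2861 CPM, and 7 macrophage markers at 13.1 and 20.7 CPM and at 206 and 115 CPM, with all 24 of these genes past the test as higher. All 10 spermatid markers were lower, with a sum of 3838 and 1895 CPM in WT and 22.4 and 13.8 CPM in the knockdown, where Prm2 and Smcp had no count. Of 11 pachytene markers 7 were lower, 1 was higher and 3 did not pass, with a median log2 fold change of -3.83. Their sum was 9880 and 9018 CPM in WT and 2134 and 1762 CPM in the knockdown. Sycp3, of the paired chromosome axes, was among the 3 that did not pass. It was present in every library, at 151 and 105 CPM in WT and 311 and 157 CPM in the knockdown. Of 13 spermatogonial markers 9 were higher and 0 lower, with a median log2 fold change of 3.58. The part of these cell types in the values below was not tested, and in bulk RNA fewer cells of a type and less RNA per cell cannot be told apart.

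Promoters of housekeeping mitochondrial genes are known to carry sites for the factors NRF1, YY1 and the ETS factor GABP. RefSeq promoters of build GRCm38.p6, from 250 bases before to 50 bases after the annotated start, were matched by symbol for 69 of the 78 genes. The first 2 stretches below are shown because they hold an NRF1 motif in a gene that fell (Mrpl39) and an ETS motif in a gene that rose (Mrpl3). The third holds neither of these and is shown as the whole gap, with a GC box, between a large-subunit and a small-subunit gene that start back to back (Mrps11 and Mrpl46). Each is written 5′ to 3′ and ends at the last base before the annotated start. Capitals mark the NRF1 motif (GCGC, any base, TGCGC) in the first, the ETS motif CCGGAAG in the second and the GC box GGGCGG in the third. Counts were made on mm39, so these GRCm38 coordinates belong to the sequences alone.
Mrpl39, chr16:84735245-84735494, minus strand: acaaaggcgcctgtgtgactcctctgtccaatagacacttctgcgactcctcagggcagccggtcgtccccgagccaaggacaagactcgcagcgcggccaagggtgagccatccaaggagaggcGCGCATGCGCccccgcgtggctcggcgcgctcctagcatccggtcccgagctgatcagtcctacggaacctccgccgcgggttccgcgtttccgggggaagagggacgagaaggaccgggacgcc
Mrpl3, chr9:105053018-105053267, plus strand: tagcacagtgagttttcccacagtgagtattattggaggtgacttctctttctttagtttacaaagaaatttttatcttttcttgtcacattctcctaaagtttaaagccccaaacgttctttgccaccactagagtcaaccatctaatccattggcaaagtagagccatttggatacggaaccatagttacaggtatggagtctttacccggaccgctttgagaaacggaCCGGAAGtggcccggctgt
Mrps11 and Mrpl46, chr7:78783090-78783130, plus strand: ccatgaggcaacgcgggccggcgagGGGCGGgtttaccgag

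Counted on both strands, the ETS motif was found in 25 of 69 mitoribosomal promoters (36.2%), against 9.12% of all 27025 promoters of that length. For NRF1 the count was 13 of 69 (18.8%) against 4.78%, and for YY1, searched as AANATGGCG, it was 11 of 69 (15.9%) against 2.51%. The heat shock factor motif TTCNNGAA was found in 1 of 69 (1.45%), in Mrpl39, against 8.40%. That match lies after the annotated start, outside the stretch printed above. The A-MYB motif TAACNG was found in 11 of 69 (15.9%) against 23.2%, and the E-box CACGTG in 5 of 69 (7.25%) against 7.24%. The GC box had 34 of 69 (49.3%) against 35.9%, and the CCAAT box had 27 of 69 (39.1%) against 37.9%. Each motif was counted on its own, so matches to different motifs may overlap. These are letters in a window, and the data do not show which factor was bound.

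**Figure D1:**
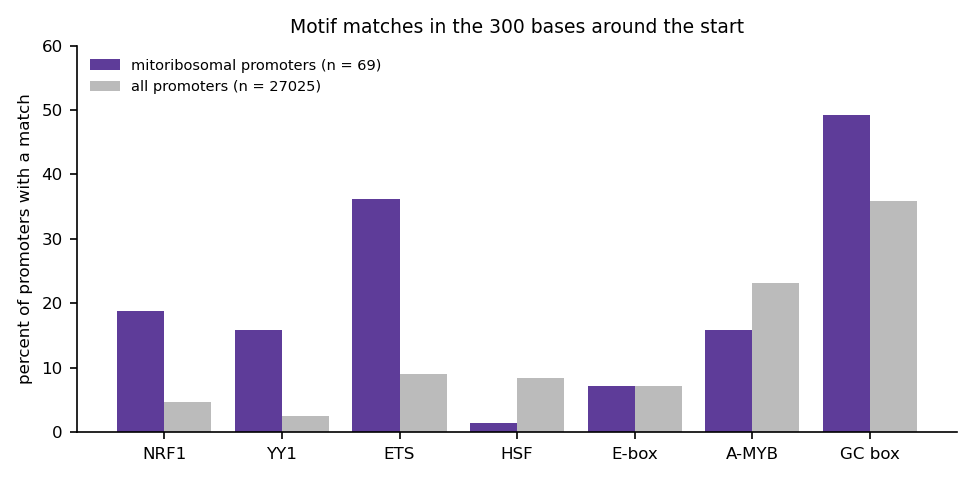
Share of promoters with a match to each motif drawn (the CCAAT box is not), in percent, for the 69 mitoribosomal genes with a RefSeq promoter (purple) and for all 27025 genes in the promoter table (grey). The ETS, NRF1 and YY1 bars are taller for the mitoribosomal genes, at 36.2%, 18.8% and 15.9%, and the heat shock factor bar (HSF) is lower, at 1.45%.

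By the call of the test, 6 of 13 promoters of genes that rose, 3 of 7 of genes that fell and 32 of 49 of genes not past the test held at least 1 of the NRF1, YY1 and ETS motifs. Over all 69 it was 41 (59.4%), against 14.7% of all promoters. The NRF1 motif alone was in 1 of 13 genes that rose, 1 of 7 that fell and 11 of 49 not past the test. For the ETS motif alone it was 4 of 13, 2 of 7 and 19 of 49. The head-to-head pair shares 41 bases between its starts. On the log2 scale Mrps11 had a fold change of -0.25 (SE 0.35) and Mrpl46 of 0.67 (SE 0.39), and neither passed the test. The difference between them was not tested.

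In the comparison of knockdown with WT, 14 of the 78 genes rose and 7 fell, and 57 did not pass (edgeR quasi-likelihood test, Benjamini-Hochberg adjusted over all 23594 genes tested, at 0.05). The share called was 26.9%, against a background of 60.9% of all genes tested, of which 27.4% were higher and 33.5% lower. At the same mean level as the mitoribosomal genes, from 7.78 to 113 CPM, the background was 64.7% of 9129 genes, with 36.6% higher and 28.2% lower. The changes were small beside those of all genes tested: 61 of the 78 (78.2%) had a log2 fold change of less than 1 in size, against 31.9%. That share was not computed for genes at the same mean level. Past the test with a log2 fold change of 1 or more in size were 17 of the 78 (21.8%), against 58.5% of all genes tested. Their standard errors ran from 0.29 to 0.49, with a median of 0.37 against 0.56 over all genes tested. The median log2 fold change was 0.06, beside -0.12 for all genes. Under scaling by library totals alone the median of all genes moved from -0.12 to 0.31, and that of the mitoribosomal genes to 0.48, with 30 genes higher and 2 lower. By chromosome the 78 genes are spread over 17 autosomes, and 0 of them lie on X or Y.

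The counts depended on single libraries. Without WT replicate 1, 10 genes were higher and 1 lower, and without WT replicate 2 it was 9 and 5. Leaving out knockdown replicate 1 gave 7 higher and 11 lower, and leaving out knockdown replicate 2 gave 20 higher and 1 lower. Of the 21 called genes, 7 stayed past the test under all 9 of these alternatives: 3 other scalings, DESeq2 in place of edgeR, a block for the replicate number, and each library left out. They were Mrpl58, Mrpl14, Mrpl23, Mrpl49, Mrps24 and Mrps7 as higher and Mrpl39 as lower. The other 14 kept their direction in all 9.

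**Figure D2:**
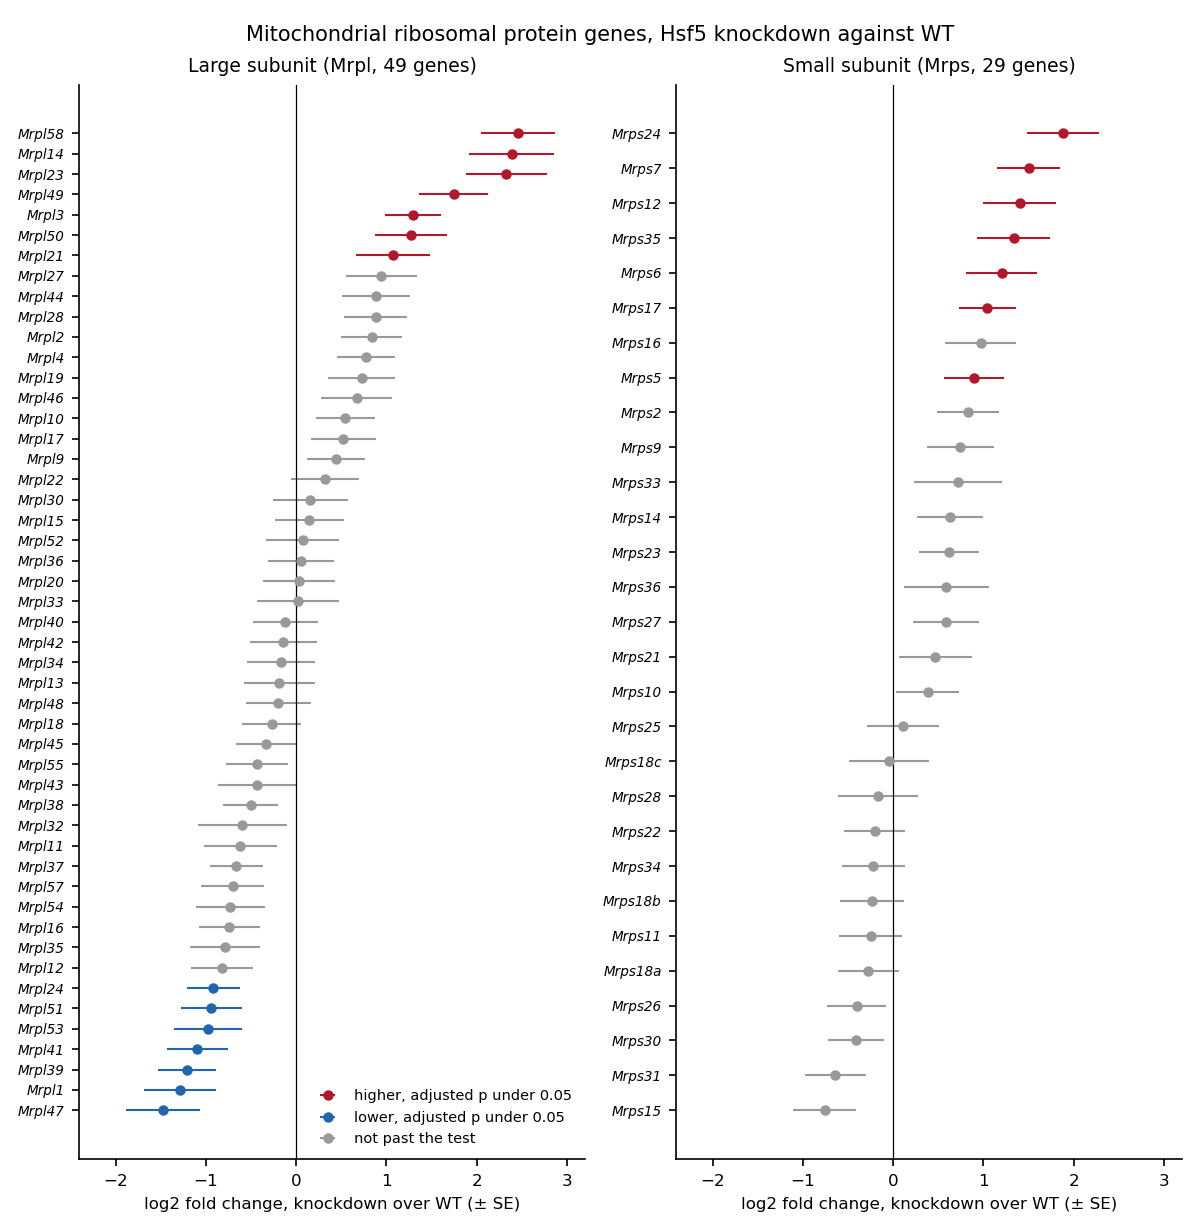
Log2 fold change of knockdown over WT for each of the 78 genes (points, with bars of 1 standard error), sorted within the large subunit (left, 49 genes) and the small subunit (right, 29 genes). Red points are higher and blue points lower at an adjusted p under 0.05, and all 7 blue points lie in the large subunit.

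Of all genes tested 27.4% rose and 33.5% fell, and of those at the members' mean level 36.6% and 28.2%. The shares that rose in both subunits were under these. In the large subunit 7 of 49 genes rose and 7 fell (14.3% each way), with a median log2 fold change of -0.12. In the small subunit 7 of 29 rose (24.1%) and 0 fell, with a median of 0.59. The 0 was the same at an unadjusted p under 0.05 by edgeR, by the DESeq2 Wald test and with each library left out, whereas with the replicate number as a block 2 small-subunit genes were lower. The share of genes with a positive fold change was 18 of 29 in the small subunit and 24 of 49 in the large. The small-subunit count of genes that rose was 2 without knockdown replicate 1 and 4 without WT replicate 2. The median of the small subunit lay above that of the large subunit by 0.70, and by 0.55 to 0.72 under the 3 other scalings, the other filters, the DESeq2 test, the block and each library left out. No test of the difference between the subunits was made.

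A measure that scaling between libraries cannot move is the ratio of the subunits within a library. Summed CPM of the large-subunit genes was 3.13 and 2.91 times that of the small-subunit genes in WT replicates 1 and 2, and 2.17 and 2.02 times in knockdown replicates 1 and 2. The 2 knockdown ratios were thus both under the lower WT ratio. The sums behind it were 2574 and 2228 CPM (large) and 824 and 767 CPM (small) in WT, and 2645 and 1572 CPM (large) and 1216 and 778 CPM (small) in the knockdown. Among the symbols, Mrps30 and Mrps18a are known from structures to sit in the large subunit, and Mrps36 is known as a part of a dehydrogenase complex, not of the ribosome. With those 3 placed accordingly the ratio was 3.73 and 3.48 in WT and 2.44 and 2.31 in the knockdown. With levels divided by transcript length, the median gene of the large subunit stood at 27.5 and 23.4 CPM per kilobase in WT and 36.9 and 22.7 in the knockdown, and that of the small subunit at 16.5 and 17.2 and at 28.2 and 19.2.

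The 78 levels also lay closer together in the knockdown. The standard deviation of log2 CPM across the genes was 1.19 and 1.14 in WT and 0.69 and 0.70 in the knockdown. From the lowest to the highest gene the level spanned 54.0-fold and 38.7-fold in WT and 12.4-fold and 13.0-fold in the knockdown. Per kilobase the standard deviation was 1.44 and 1.41 in WT and 1.12 and 1.08 in the knockdown. Ranked by mean level over the 4 libraries, the lowest 20 genes (7.78 to 24.8 CPM) held 8 that rose and 0 that fell by edgeR, and the highest 20 (47.4 to 113 CPM) held 1 that rose and 5 that fell. Their median log2 fold changes were 0.78 and -0.56. Of all 9129 genes with a mean level from 7.78 to 113 CPM, 36.6% rose and 28.2% fell. Shares for all genes at the lowest or the highest of these levels were not computed. Whether the levels of all genes also lay closer together in the knockdown was not tested, so the narrowing cannot be called particular to the mitoribosomal genes.

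**Figure D3:**
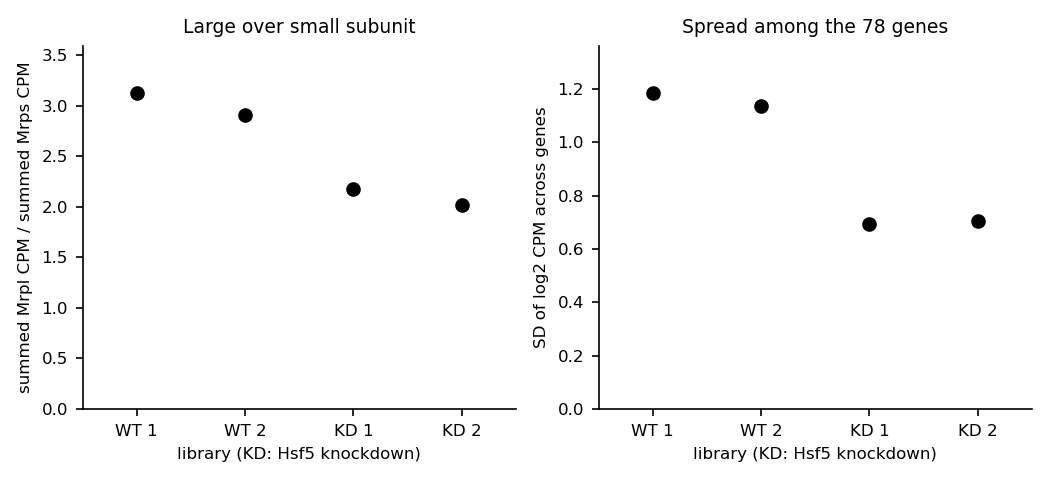
Left, summed CPM of Mrpl genes divided by that of Mrps genes in each library; right, standard deviation of log2 CPM across the 78 genes in each library, with KD for the Hsf5 knockdown. Both knockdown points lie below both WT points in each panel (3.13 and 2.91 against 2.17 and 2.02; 1.19 and 1.14 against 0.69 and 0.70).

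The knockdown libraries differed from each other over the whole set. All 78 genes were lower in knockdown replicate 2 than in replicate 1, against 46.6% of all genes tested, with a median log2 ratio of -0.70 against 0.01 for all genes. In WT 57 of 78 were lower in replicate 2, with a median of -0.18. The ratio between the knockdown libraries varied with transcript length over all genes of at least 1 CPM: its median was -0.55 for transcripts under 1000 nt and 0.31 for those of 4000 nt or more. Mitoribosomal transcripts, with a median length of 1328 nt, had medians of -0.75 in the shortest class and -0.56 in the longest. Between the WT libraries the medians of all these genes also varied, from -0.29 in the shortest class to 0.27 in the longest. So did their median log2 fold change of knockdown over WT, from -0.27 to 0.48. For the mitoribosomal genes that median was 0.02, 0.39, -0.50 and 0.52 from the shortest class to the longest. The part of transcript length or RNA quality in the results was not tested. Together the 78 genes took 0.290% and 0.259% of all counts in WT and 0.429% and 0.286% in the knockdown.

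**Figure D4:**
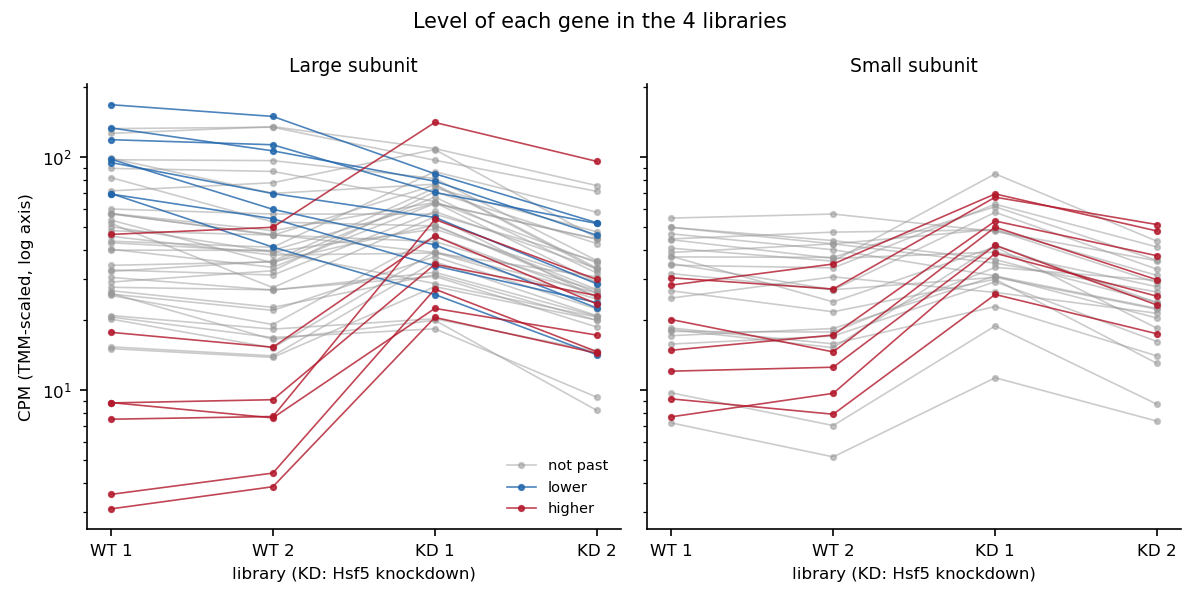
CPM (TMM-scaled, log axis) of each gene in the 4 libraries, large subunit left and small subunit right, with lines joining the values of 1 gene and KD for the Hsf5 knockdown. Red genes rose, blue genes fell and grey genes did not pass the test; every line drops from knockdown replicate 1 to knockdown replicate 2, and the lines span 38.7-fold or more in WT and 13.0-fold or less in the knockdown.

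Among large-subunit genes that rose, Mrpl58 had the highest fold change. It encodes a peptidyl-tRNA hydrolase that has become part of the large subunit, where it sits in the central protuberance, the crest that faces the small subunit. Its level was 7.51 and 7.72 CPM in WT and 54.0 and 29.8 CPM in the knockdown, a log2 fold change of 2.46 (SE 0.41; edgeR adjusted p = 0.000906). Both knockdown libraries were far above both WT libraries, although they differed from each other. The other 7 genes listed for the central protuberance did not pass, with fold changes from -0.51 (Mrpl38) to 0.94 (Mrpl27) on the log2 scale.

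Mrpl14, a bacterial-type protein at the face between the subunits, stood at 3.58 and 4.41 CPM in WT and 27.1 and 14.6 CPM in the knockdown (log2 fold change 2.39, SE 0.47). Mrpl23, near the exit of the peptide tunnel, had 3.10 and 3.86 CPM in WT, the lowest levels of all 78 genes there, and 20.5 and 14.4 CPM in the knockdown (2.33, SE 0.45). Both passed the test (edgeR adjusted p = 0.00207 and 0.00188). For both, each knockdown library was above each WT library. Mrpl49, specific to mitochondria, went from 8.82 and 9.11 CPM to 34.7 and 25.5 CPM (1.75, SE 0.38). In the RefSeq annotation Mrpl14 overlaps Tmem63b and Mrpl49 overlaps Syvn1. Among other genes that rose, Mrpl21 overlaps Ighmbp2 and Mir6984, Mrps6 overlaps Slc5a3, and Mrps7 overlaps Gga3 and Mif4gd. No source used here gives the strand setting of the counting, so reads of such pairs may not be told apart.

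Mrpl3, whose protein lies near the peptidyl transferase centre and whose promoter stretch is printed above, was the most abundant of the genes that rose. It went from 46.6 and 49.9 CPM to 141 and 95.7 CPM, a log2 fold change of 1.29 (SE 0.31; edgeR adjusted p = 0.00549). The call was lost without WT replicate 1 (adjusted p = 0.0524). Mrpl50, with no bacterial counterpart, had 8.85 and 7.61 CPM in WT and 22.4 and 17.2 CPM in the knockdown (1.27, SE 0.40), and Mrpl21 a log2 fold change of 1.07 (SE 0.41). The Mrpl50 call was lost without WT replicate 2 (edgeR adjusted p = 0.0647) and without knockdown replicate 1 (0.0896). That of Mrpl21 was lost without WT replicate 1 (edgeR adjusted p = 0.0664), WT replicate 2 (0.106) or knockdown replicate 1 (0.337), and with DESeq2 size factors (0.0548).

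The 7 genes that fell had WT means from 55.4 (Mrpl47) to 158 CPM (Mrpl39). Mrpl39, a relative of threonyl-tRNA synthetase with no bacterial ribosomal counterpart, had the highest mean level of all 78 genes. It stood at 168 and 149 CPM in WT and at 84.7 and 52.2 CPM in the knockdown, a log2 fold change of -1.21 (SE 0.32; edgeR adjusted p = 0.00971). Its groups did not overlap, and it is the only gene that fell whose call stood under all 9 alternatives. Mrpl47, next to the tunnel exit, went from 69.7 and 41.1 CPM to 25.7 and 14.2 CPM (-1.47, SE 0.41), and Mrpl1, of the mobile L1 stalk, from 97.9 and 59.6 CPM to 42.0 and 22.5 CPM (-1.29, SE 0.40). For both genes the WT libraries were themselves apart, with replicate 2 lower than replicate 1 by 0.76 and 0.71 on the log2 scale. Both calls were lost without WT replicate 1 (edgeR adjusted p = 0.0701 for Mrpl47 and 0.123 for Mrpl1) and without knockdown replicate 2 (0.0551 and 0.0701), and that of Mrpl1 also with library totals only (0.0747).

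The other 4 genes that fell did so by smaller steps. Mrpl41 went from 69.3 and 54.4 CPM to 34.2 and 23.8 CPM (log2 fold change -1.09, SE 0.34), and Mrpl24, near the tunnel exit, from 119 and 113 CPM to 70.5 and 51.9 CPM (-0.92, SE 0.29). Mrpl51 went from 133 and 106 CPM to 78.7 and 46.2 CPM (-0.94, SE 0.34). Mrpl53, at the base of the stalk that recruits translation factors, went from 94.7 and 69.7 CPM to 55.1 and 28.6 CPM (-0.97, SE 0.37). In none of these did the groups overlap. All 4 calls were lost with library totals only (edgeR adjusted p from 0.0945 for Mrpl41 to 0.199 for Mrpl53), without WT replicate 1 (0.114 to 0.208) and without knockdown replicate 2 (0.0796 to 0.188), and those of Mrpl51 and Mrpl24 also without WT replicate 2 (0.0581 and 0.102). In RefSeq Mrpl53 overlaps Ccdc142 and Mrpl24 overlaps Rrnad1.

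By place in the subunit, 1 of 5 genes of the stalk list (Mrpl53) fell and the other 4 did not pass (20% called, against 60.9% of all genes tested). The abundant Mrpl54 of that list, the highest gene per kilobase in WT, stood at 97.3 and 96.5 CPM in WT and 80.9 and 36.0 CPM in the knockdown (log2 fold change -0.73, SE 0.38; edgeR adjusted p = 0.127), and without knockdown replicate 1 it passed as lower (-1.36, adjusted p = 0.00945). Of 8 tunnel exit genes, 3 (Mrpl47, Mrpl39 and Mrpl24) fell, 1 (Mrpl23) rose and 4 did not pass (50% called, also under 60.9%). Per kilobase the highest genes in WT were Mrpl54, Mrpl53 and Mrpl52, with means of 160, 118 and 112 CPM per kilobase, and in the knockdown these 3 stood at 96.7, 60.2 and 117. Mrpl52 had 57.1 and 46.2 CPM in WT and 75.8 and 32.8 CPM in the knockdown, so that the knockdown libraries lay on both sides of WT (log2 fold change 0.07, SE 0.41).

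Of the small-subunit genes, Mrps24, which holds the place of bacterial protein S3 at the mRNA entry, had the highest fold change. Its level went from 7.69 and 9.70 CPM to 38.7 and 25.3 CPM (log2 fold change 1.88, SE 0.40; edgeR adjusted p = 0.00299). Mrps7, an early binder of the small-subunit RNA, went from 14.8 and 17.2 CPM to 53.1 and 37.7 CPM (1.502, SE 0.35; adjusted p = 0.00501). Mrps12, at the decoding centre, had 12.1 and 12.5 CPM in WT and 41.8 and 23.2 CPM in the knockdown (1.40, SE 0.40). Mrps35, specific to mitochondria, had 9.18 and 7.89 CPM in WT and 25.7 and 17.5 CPM in the knockdown (1.34, SE 0.41). In each of the 4 both knockdown libraries were above both WT libraries. The calls of Mrps12 and Mrps35 were lost without knockdown replicate 1 (edgeR adjusted p = 0.117 and 0.0973). Mrps6, Mrps17 and Mrps5 rose by 1.20 (SE 0.39), 1.04 (SE 0.32) and 0.90 (SE 0.33). All 3 calls were lost without WT replicate 2 (edgeR adjusted p = 0.0973, 0.104 and 0.0745) and without knockdown replicate 1 (0.155, 0.0846 and 0.195). Those of Mrps17 and Mrps5 were also lost without WT replicate 1 (edgeR adjusted p = 0.0761 and 0.243), and that of Mrps5 by the DESeq2 Wald test (adjusted p = 0.0663).

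Proteins with a bacterial counterpart and proteins found only in mitochondria were counted apart. In the small subunit 6 of 16 bacterial-type genes rose (37.5%, near the 36.6% higher among all genes at the members' mean level) and 0 fell, with a median log2 fold change of 0.79, and 1 of 10 mitochondria-specific genes (Mrps35) rose and 0 fell, with a median of -0.05. In the large subunit 4 of 30 bacterial-type genes rose and 3 fell (23.3% called, median 0.10). Of its 19 mitochondria-specific genes 3 rose and 4 fell (36.8% called, median -0.34). Both shares called were under the 60.9% of all genes tested. Summed CPM of the mitochondria-specific large-subunit genes was 1194 and 1063 in WT and 1037 and 628 in the knockdown, and that of the bacterial-type small-subunit genes was 430 and 399 in WT and 779 and 478 in the knockdown. With TMM scaling both knockdown values were below both WT values for the first sum and above both for the second. The first order depends on that scaling. By library totals alone, knockdown replicate 1 would stand above both WT replicates for the first sum.

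The paralogs Mrps18a, Mrps18b and Mrps18c, 3 relatives of bacterial S18 of which Mrps18a is known in the large subunit, did not pass the test. Mrps18a stood at 44.2 and 36.7 CPM in WT and 39.1 and 27.8 CPM in the knockdown, Mrps18b at 34.9 and 27.0 CPM and at 30.5 and 22.2 CPM. Mrps18c stood at 37.5 and 23.9 CPM and at 41.1 and 18.4 CPM. In all 3 the groups overlapped, with log2 fold changes of -0.28 (SE 0.33), -0.23 (SE 0.35) and -0.04 (SE 0.44), all 3 of which turn positive with library totals only (0.15, 0.20 and 0.37). Mrps30 had 54.7 and 56.9 CPM in WT and 47.9 and 35.9 CPM in the knockdown (-0.41, SE 0.31), with a value of 0.015 under library totals only. Mrps36 had the lowest mean of the 78, with 7.24 and 5.18 CPM in WT and 11.3 and 7.37 CPM in the knockdown (0.59, SE 0.47).

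Over all 57 genes that did not pass, the log2 fold change ran from -0.82 (Mrpl12, of the stalk) to 0.97 (Mrps16). Groups of WT and knockdown values did not overlap for 50 of the 78 genes (64.1%), 30 higher and 20 lower, against 82.7% of all genes tested (39.0% higher and 43.7% lower). Of the 57 not past the test, 29 had groups that did not overlap, 16 higher and 13 lower. The same share among all genes not past the test was not computed, so this count cannot be read as particular to the mitoribosomal genes. A further 5 proteins of the mitochondrial ribosome have other symbols (Dap3, Ptcd3, Aurkaip1, Chchd1 and Gadd45gip1), and 0 of 5 passed, also at an unadjusted p under 0.05 by edgeR and by DESeq2. Dap3, a GTP-binding protein of the small subunit, was the highest of them, at 320 and 270 CPM in WT and 261 and 152 CPM in the knockdown (log2 fold change -0.52, SE 0.34).

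Genes that build and serve this ribosome were counted in lists, to be read against the 60.9% of all genes called. Their named genes are those with the smallest p, not typical members. Among 25 assembly factors 5 rose, 5 fell and 15 did not pass (40%, median log2 fold change 0.39). Mpv17l2 went from 2.27 and 3.13 CPM to 30.2 and 21.8 CPM (3.27, SE 0.45), and Mrm1, a methyltransferase of the large ribosomal RNA, from 1.16 and 1.39 CPM to 11.03 and 12.53 CPM (3.21, SE 0.50). Nsun4, which methylates the small ribosomal RNA and joins the subunits with Mterf4, went from 71.7 and 66.5 CPM to 20.9 and 18.1 CPM (-1.82, SE 0.31).

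Of 15 translation factors 4 rose, 3 fell and 8 did not pass (46.7%, median 0.24). The release factor gene Mtrf1l went from 1.10 and 0.73 CPM to 17.0 and 15.0 CPM (log2 fold change 4.12, SE 0.51), and Guf1, an elongation factor, from 5.66 and 9.31 CPM to 29.5 and 28.1 CPM (1.94, SE 0.41). Initiation factor gene Mtif3 fell, from 32.2 and 29.8 CPM to 7.20 and 6.30 CPM (-2.20, SE 0.38). The elongation factor Tufm, which brings tRNA to the ribosome, had 71.6 and 82.3 CPM in WT and 92.3 and 71.4 CPM in the knockdown and did not pass.

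Of 20 genes for charging mitochondrial tRNAs 10 rose and 2 fell (60%, median 0.96). Vars2 for valine went from 16.8 and 21.1 CPM to 82.9 and 73.8 CPM (log2 fold change 2.04, SE 0.32) and Iars2 for isoleucine from 39.5 and 60.6 CPM to 154 and 147 CPM (1.59, SE 0.32), whereas Fars2 for phenylalanine went from 118 and 113 CPM to 47.2 and 37.0 CPM (-1.46, SE 0.29). Of 17 genes for mitochondrial DNA upkeep and RNA 7 rose (41.2%) and 0 fell, also 0 at an unadjusted p under 0.05 by edgeR and by DESeq2 (median 0.80). The X-linked Hsd17b10, a subunit of mitochondrial RNase P, went from 1.52 and 4.62 CPM to 28.7 and 30.1 CPM (3.26, SE 0.56). Mgme1, a nuclease, rose by 1.83 (SE 0.41), and Twnk, the helicase that opens mitochondrial DNA for copying, by 1.49 (SE 0.34). Twnk overlaps the member Mrpl43.

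Of 10 regulators of mitochondrial genes 4 were higher and 2 lower (60%, near the 60.9% of all genes tested). Pprc1, a growth-linked coactivator, went from 12.1 and 13.0 CPM to 84.9 and 108 CPM (log2 fold change 2.95, SE 0.33), and its relative Ppargc1a from 6.23 and 7.61 CPM to 0.212 and 0.242 CPM (-4.91, SE 0.63). Mycn rose from 0.715 and 0.765 CPM to 10.04 and 15.42 CPM (4.10, SE 0.54). Of the listed genes for NRF1, GABP and YY1, Nrf1 rose by 1.00 (SE 0.31, edgeR adjusted p = 0.0198). Gabpa (0.39, SE 0.29), Gabpb1 (0.43, SE 0.31) and Yy1 (0.29, SE 0.28) did not pass.

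**Figure D5:**
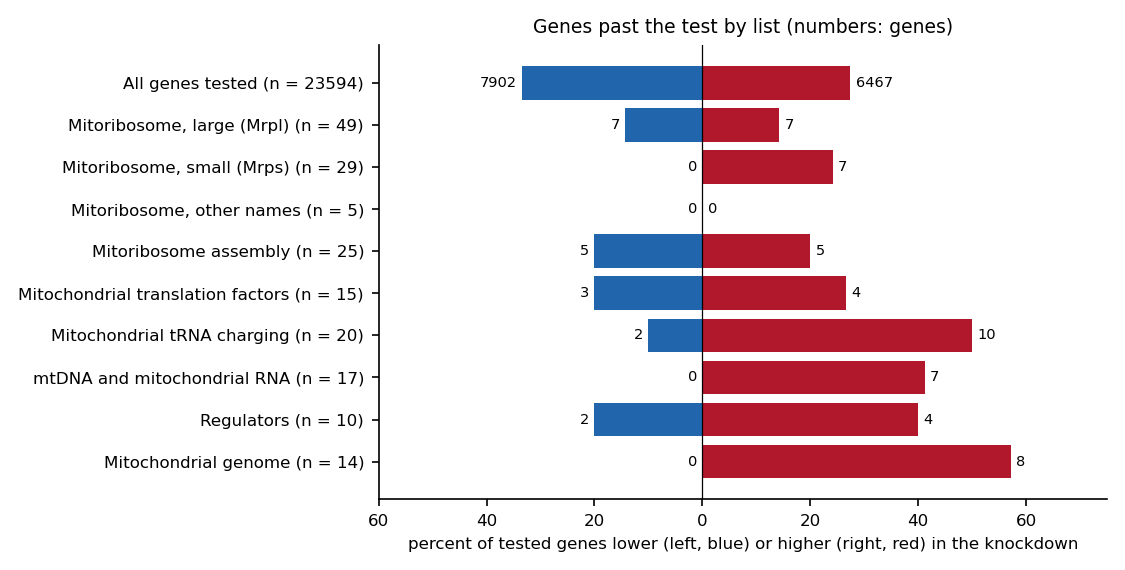
Percent of tested genes past the test as lower (blue, left) or higher (red, right) in the knockdown, for all genes, the mitoribosomal genes and the other lists of the pathway, with the number of genes at each bar. The mitoribosomal bars (7 and 7 of 49; 7 and 0 of 29) are shorter in sum than that of all genes (60.9%).

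The transcripts that this ribosome reads are those of mitochondrial DNA. The 13 protein genes together stood at 7594 and 8372 CPM in WT and 31200 and 19960 CPM in the knockdown, or 0.648% and 0.724% of all counts against 3.47% and 2.43%. Of 14 mitochondrial genes tested, 12 for proteins and 2 for ribosomal RNA, 8 rose (57.1%) and 0 fell, also 0 at an unadjusted p under 0.05 by edgeR and by DESeq2. CYTB went from 1249 and 1215 CPM to 6303 and 3336 CPM (log2 fold change 1.97, SE 0.43), COX3 rose by 1.74 (SE 0.38) and ND5 by 1.60 (SE 0.39). The ribosomal RNA genes mt-Rnr1 (1.27, SE 0.64) and mt-Rnr2 (0.07, SE 0.33) did not pass, and in libraries selected for poly(A) their counts need not follow their amounts.

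For comparison with the 26.9% of mitoribosomal genes called, 2 related groups were counted. Of 82 cytosolic ribosomal protein genes tested 20 rose and 0 fell (24.4%, median log2 fold change 0.52), and of 85 nuclear respiratory chain genes 12 rose and 7 fell (22.4%, median 0.05). Both groups were also lower in knockdown replicate 2 than in replicate 1, with median log2 ratios of -1.01 and -0.87.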

How the data were processed

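Polyadenylated RNA of 2 WT and 2 Hsf5 knockdown libraries was sequenced. The authors deposited raw read counts per gene in 1 table of 50763 genes. The submitters' processing notes name HISAT2 2.2.1, Trim Galore 0.6.10, DESeq2 1.46.0 and featureCounts 1.5.3, with build mm39. For annotation, strand setting and multi-mapping reads, the settings were not given in the sources used here. Each column matched a label by name.

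In R 4.3.3, edgeR 4.0.16 filtered genes with filterByExpr (23594 of 36809 with a count), scaled by TMM (factors 0.854, 0.865, 1.11 and 1.22) and ran the quasi-likelihood F test, adjusted by Benjamini-Hochberg over all tested genes at 0.05. SE is the log2 fold change over the square root of F. CPM is computed from the counts. The fit was also run on simulated data in which few genes changed, as many up as down. In these data most genes tested were called, so that run does not show how the scaling fares here. Alternatives were other scalings, filters, DESeq2 1.42.0, a replicate block, a minimum log2 fold change of 1 and leaving out each library.

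The members, lists and tests were chosen with earlier results of these data known. Members were named where they passed 0.05 with mean CPM of 1 or more and groups apart, up to 10 each way by fold change; also the 3 highest per kilobase, the highest and lowest mean, Mrps18 paralogs, Mrps30, Mrps36, the smallest p of each role list and up to 3 per pathway list. Promoters are the first listed per symbol, and the motifs were chosen with the counts at hand. Others were named after their values were seen. Lengths are the longest coding transcript in GENCODE M21 (GRCm38), for 78 of 78. The markers of spermatogonia, peritubular and endothelial cells had 9 of 13, 4 of 5 and 2 of 5 genes higher and 0 lower by edgeR.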

Additional observations from a re-analysis of the deposited data

How the results depend on the processing

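Scaling by library totals alone gave 30 mitoribosomal genes higher (17 large-subunit, 13 small-subunit) and 2 lower, both of the large subunit, with medians of 0.48 for all members and 1.01 (1.012) for the small subunit. It turned Mrps18a (0.153), Mrps18b (0.198), Mrps18c (0.372) and Mrps30 (0.015) positive. Scaling on synaptonemal complex and cohesin genes gave 11 large-subunit genes higher and turned Mrps18c (0.027), as did testing without a filter (0.0001991). A minimum log2 fold change of 1 left 4 lower, all of the large subunit. The replicate numbers share only a number in the labels (correlation of same-numbered deviations 0.273, 2 pairs). With them as a replicate block 22 genes were higher (12 large-subunit) and 16 lower (14 large-subunit, 2 small-subunit), and Mrpl52 turned to -0.040.

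Leaving out 1 library at a time gave 7 to 20 members higher (large subunit 5 to 11, small subunit 2 to 9) and 1 to 11 lower, all of the large subunit. Medians ran from -0.343 to 0.512 for all members and from 0.128 to 0.832 for the small subunit. Mrpl52 ran from -0.577 to 0.560 and Mrps18c from -0.657 to 0.433. The lone library left in a group is assumed to vary like the other group. The causes were not tested. With 2 libraries a group, standard errors of 0.29 to 0.49 limit what could be called.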

Other observations

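Rows named as pseudogenes of mitoribosomal genes held few counts, and how reads were split between a gene and its near-copy is not known here. Mrpl27-ps had 19 and 12 counts in WT and 62 and 17 in the knockdown, and Mrpl48-ps had 27 and 31 and then 39 and 20. Mrpl23-ps1 had 1 and 20 counts in WT and 23 and 11 in the knockdown. Mrps36-ps2 had 36 and 30 counts in WT and 0 and 4 in the knockdown, while Mrps36 itself had 243 and 149 counts in WT and 534 and 304 in the knockdown.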
